A study of Mus musculus with 3 samples.

Results

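The unfolded protein response and secretory genes described here are 34 mouse genes chosen by symbol, of 32285 genes in the deposited matrices, and each had at least 1 count in every library. They comprise 11 chaperones and cofactors of the endoplasmic reticulum (ER), 4 protein disulfide isomerases, 5 genes of ER-associated degradation, 6 stress sensors and transcription factors, 3 target genes of ATF4 and CHOP, and 5 genes of the translocon and signal peptidase. The cells came from the lamina propria of the colon and were sorted as viable and CD45-positive, and each of 3 antibodies had 1 single-cell library: DATK32, MECA-367 and the control antibody, rat IgG. All 3 groups were C57/BL6J mice given 1.5% dextran sulfate sodium (DSS, an agent that injures the colon epithelium) for 7 days and then water for 3 days, with 250 µg of the antibody injected into the peritoneum 3 times per week. The number of mice behind each library is not stated in the sources used here, no untreated mice without DSS were analysed here, and with 1 library per group a difference between libraries has no replicate check.

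Proteins that a cell secretes enter the ER through the translocon, lose their signal peptide, fold with the help of chaperones and disulfide isomerases, and are sent for degradation if they fail to fold. When unfolded protein accumulates, the sensors IRE1, ATF6 and PERK act through the transcription factors XBP1, cleaved ATF6 and ATF4 to raise the genes of this machinery, and prolonged stress raises CHOP. Plasma cells, which secrete antibody, depend on XBP1, and goblet cells, which secrete mucin, carry IRE1β, a form of IRE1 found in mucosal epithelium.

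After barcodes were kept at 500 or more UMIs, 200 or more genes and at most 10% mitochondrial counts, 5852 cells remained in the DATK32 library, 5890 in the MECA-367 library and 7367 in the rat IgG library, with medians of 1524.5, 1824.5 and 1469 UMIs per cell. The libraries shared 16 to 20 kept barcodes each with the other libraries. Clusters were named by marker genes, so each class name stands for a cluster that is like that cell type, and 13 classes reached 50 cells in every library. Epithelial, stromal and vascular classes were present although the sort was for CD45. Plasma cells numbered 262, 260 and 563 in the DATK32, MECA-367 and rat IgG libraries, and goblet cells 529, 272 and 664. Of 9 plasma cell markers, 8 were highest in the plasma cell class, the exception being Prdm1, which was highest in endothelial cells, and 9 of 9 goblet cell markers were highest in the goblet cell class. Levels are CPM, the UMI counts of a gene summed over a class in a library and scaled to the same total in every class, with exact Poisson 95% intervals that cover counting error only. A gene was measured in a comparison if it had at least 50 counts over it, and it was called higher or lower where the CPM differed by at least 1.5-fold with intervals that did not overlap; a comparison of classes had to meet this in each of the 3 libraries. No p-value was computed, because cells of a library are not replicates and the classes were made from the same cells.

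The promoters of these genes show the sequence elements through which the response is known to act, and those elements are printed here because the same fixed bases recur in genes of different families. The ER stress element, which is CCAAT followed after 9 bases by CCACG, is bound by NF-Y together with ATF6 or XBP1. It was searched for on both strands in RefSeq windows of build GRCm38.p6 that run from 250 bases before to 50 bases after each transcript start. Windows of 29 of the 34 genes were searched, and those of Hyou1, Manf, Ern2, Atf6 and Sec11c were not analysed here. The element was in the windows of 8 of those 29 genes (27.6%), against 37 of all 27025 genes with a window (0.137%). Both the element and the 34 genes were chosen as known parts of this response, so these shares describe them and test neither. Capitals mark the fixed bases of each element, written along the strand on which it reads as CCAAT.
Hspa5 (chr2:34772025-34772043, plus strand): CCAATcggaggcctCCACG
Hsp90b1 (chr10:86705638-86705656, minus strand): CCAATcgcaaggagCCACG
Hsp90b1 (chr10:86705533-86705551, plus strand): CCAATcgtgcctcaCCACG
Calr (chr8:84847075-84847093, plus strand): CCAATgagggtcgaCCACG
Canx (chr11:50325800-50325818, minus strand): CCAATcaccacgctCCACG
Dnajc3 (chr14:118937827-118937845, plus strand): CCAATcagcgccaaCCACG
Creld2 (chr15:88819520-88819538, minus strand): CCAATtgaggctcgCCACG
Pdia6 (chr12:17266491-17266509, plus strand): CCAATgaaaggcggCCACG
Derl3 (chr10:75893242-75893260, minus strand): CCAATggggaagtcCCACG
All but the last are genes of folding, and the last, Derl3, is a degradation gene.

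A second element, ATTGG and CCACG with 1 base between them, was in the windows of Herpud1 and Dnajb11, against 12 of 27025 genes (0.0444%). TTGCATCA, a form of the amino acid response element bound by ATF4, was in the windows of Herpud1 and Chac1, against 279 genes (1.03%). TGACGTGG was in no window of the 29 genes, against 193 genes (0.714%), and TGATGNAAT was in none, against 293 genes (1.08%). No match says only that these letters are not in these windows. The upstream 250 bases of Herpud1 and Derl3 are given as 2 windows that hold different elements, with the fixed bases in capitals. In Herpud1 the first run of capitals is TTGCATCA and the others are the second element, and in Derl3 the capitals are the ER stress element read on the opposite strand.
Herpud1 (chr8:94386179-94386428, plus strand): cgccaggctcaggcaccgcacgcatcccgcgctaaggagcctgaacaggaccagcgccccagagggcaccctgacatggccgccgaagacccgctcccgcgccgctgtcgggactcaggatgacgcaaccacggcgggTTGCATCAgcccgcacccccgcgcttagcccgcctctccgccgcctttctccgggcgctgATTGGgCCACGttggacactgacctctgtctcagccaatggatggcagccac
Derl3 (chr10:75893148-75893397, plus strand): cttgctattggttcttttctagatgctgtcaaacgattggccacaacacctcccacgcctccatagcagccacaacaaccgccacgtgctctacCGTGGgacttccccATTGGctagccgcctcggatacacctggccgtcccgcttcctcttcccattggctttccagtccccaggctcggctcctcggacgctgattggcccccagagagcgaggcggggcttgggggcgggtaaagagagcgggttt

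Across the 13 classes, the 34 genes together took the largest share of UMIs in plasma cells, at 1.63% in DATK32, 1.81% in MECA-367 and 1.86% in rat IgG. Goblet cells gave 1.29%, 1.42% and 1.28% in the same libraries, and monocytes and macrophages gave 1.28%, 1.33% and 1.30%. Interstitial cells of Cajal, the pacemaker cells of the gut wall, gave 0.605%, 0.615% and 0.606%. In plasma cells immunoglobulin transcripts filled 52.5%, 55.3% and 49.7% of UMIs, and with those transcripts left out the 34 genes took 3.43%, 4.04% and 3.71%. The mean level was highest in plasma cells for 18 genes, in goblet cells for 9, in monocytes and macrophages for 4, and in ILC2, absorptive colonocytes and endothelial cells for 1 each.

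**Figure D1:**
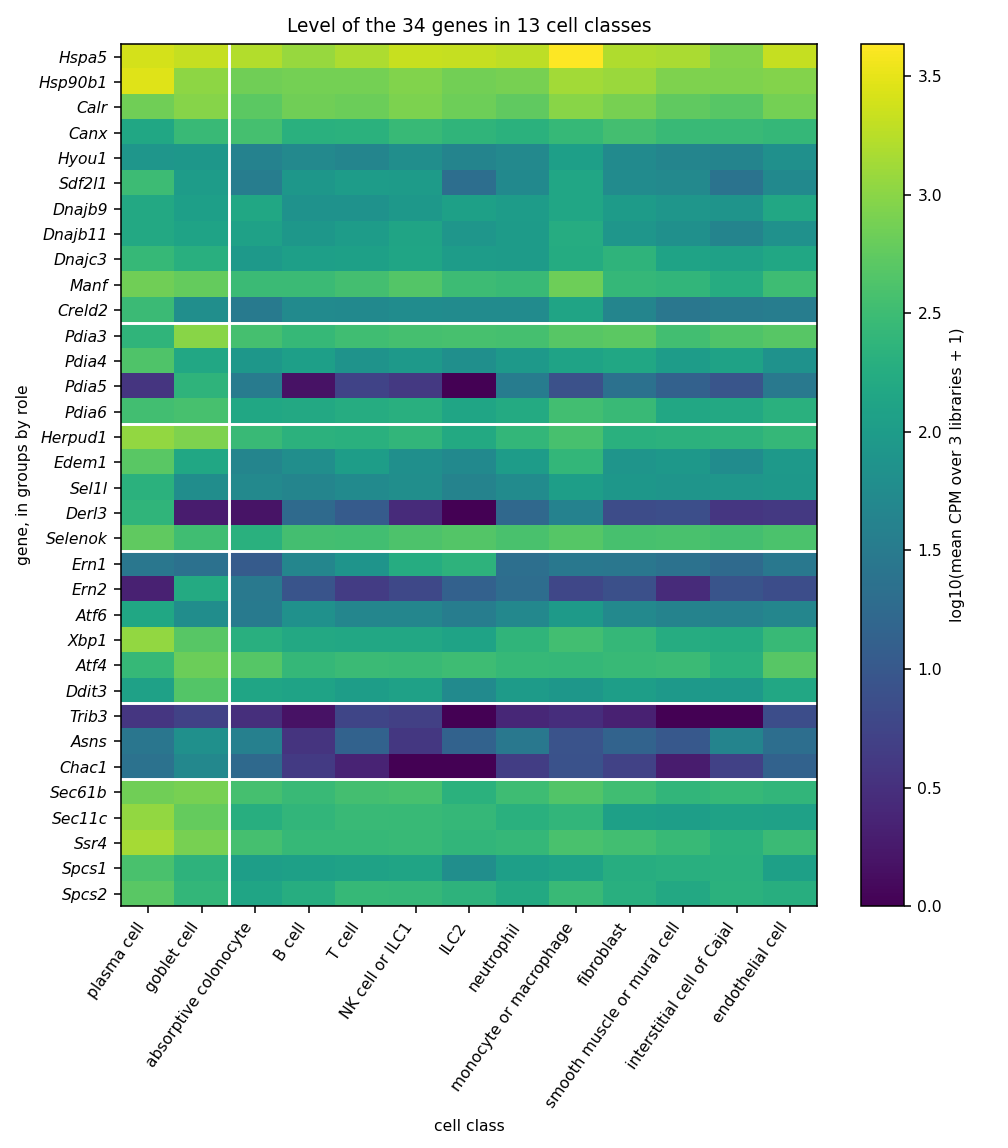
Mean level of each of the 34 genes over the 3 libraries, as log10 of CPM + 1 on the colour scale, in 13 cell classes (columns) with genes in rows grouped by role; white lines part the roles, and plasma and goblet cells from the rest. Derl3 at 239 CPM in plasma cells and Ern2 and Pdia5 at 166 and 233 CPM in goblet cells stand out from dark rows, while Hspa5 is bright in every class.

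Plasma cells were compared with the other leukocytes (T cells, NK cells or ILC1, ILC2, B cells, neutrophils, monocytes or macrophages, and mast cells or basophils) to see which steps of the secretory route carry the plasma cell level. Of 33 measured genes, 17 were higher and 3 were lower in plasma cells, against 2.31% of 11328 measured genes higher and 37.2% lower. The median log2 ratio was 0.93 over the 33 genes and -1.01 over all measured genes, since immunoglobulin takes such a share of plasma cell UMIs. With immunoglobulin genes left out of every class total, 28 of the 33 genes were higher and 0 lower, against 7.67% of genes higher and 9.93% lower, and the all-gene median was 0.01. Each log2 ratio below is on the full total unless stated, and the shift of -1.01 applies to those over other leukocytes.

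All 5 genes at the entry gate were higher in plasma cells. Ssr4, a subunit of the translocon-associated complex, had 1181, 1632 and 1315 CPM in plasma cells of DATK32, MECA-367 and rat IgG, against 303, 317 and 296 CPM in other leukocytes. Sec11c, a catalytic subunit of signal peptidase, had 995, 1289 and 1009 CPM in plasma cells, against 262, 247 and 252 CPM in other leukocytes. Plasma cells were thus several times above the other leukocytes in each library, with a mean log2 ratio of 2.16 ± 0.20 for Ssr4 and 2.10 ± 0.25 for Sec11c (SD over 3 libraries). The signal peptidase subunits Spcs1 and Spcs2 followed at 1.70 ± 0.18 and 1.07 ± 0.15, and Sec61b, a subunit of the translocation channel, at 0.92 ± 0.19.

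Of the 5 degradation genes, 4 were higher in plasma cells. Derl3, a derlin of the retrotranslocation machinery, had 197, 242 and 280 CPM in plasma cells of DATK32, MECA-367 and rat IgG, against 17.5, 18.2 and 30.2 CPM in other leukocytes, a mean log2 ratio of 3.47 ± 0.26. Herpud1, a scaffold of the ubiquitin ligase complex, had 1068, 1209 and 1071 CPM in plasma cells, against 276, 266 and 279 CPM in other leukocytes. Edem1, a lectin-like protein that marks misfolded glycoproteins, had 462, 475 and 601 CPM in plasma cells, against 138, 133 and 155 CPM. Sel1l, the adaptor of the ligase HRD1, stood at 1.55 ± 0.32 on the log2 scale. Selenok, a selenoprotein of the ER membrane, stood at 0.45 ± 0.16 and was not called, but was called higher at 1.47 with immunoglobulin left out.

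Derl3 was also set against single classes. The second highest class was monocytes and macrophages, with 33.8, 39.5 and 48.4 CPM in DATK32, MECA-367 and rat IgG, where 7.40%, 6.90% and 8.44% of UMIs were immunoglobulin. In the monocytes and macrophages left after barcodes over 5% immunoglobulin were removed (442 of 471, 490 of 526 and 547 of 594 cells), 0.0770%, 0.0465% and 0.134% of UMIs were immunoglobulin and Derl3 was at 4.37, 4.07 and 2.47 CPM, from 4, 6 and 2 counts. Whether the Derl3 UMIs of the removed barcodes came from plasma cell RNA was not tested. Goblet cells held 3, 2 and 2 Derl3 counts, against 290, 471 and 598 counts in plasma cells of the same libraries. Cells with at least 1000 UMIs were thinned to 1000, which kept 334 of 701, 584 of 823 and 228 of 643 T cells. Then 20.8%, 24.7% and 21.6% of plasma cells had a Derl3 UMI. Of T cells, 1.50%, 0.342% and 0.439% had one, from 5, 2 and 1 cells. Among all plasma cells before thinning the shares were 56.9%, 75.4% and 55.8%.

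The chaperones divided. Hsp90b1 (GRP94), the ER member of the HSP90 family, had 2646, 2646 and 3327 CPM in plasma cells of DATK32, MECA-367 and rat IgG, against 997, 899 and 1007 CPM in other leukocytes, a mean log2 ratio of 1.56 ± 0.16. Creld2 stood at 1.93 ± 0.04, Sdf2l1 at 1.73 ± 0.13 and Dnajc3, a cofactor of BiP, at 1.06 ± 0.24, and these were called too. Hspa5 (BiP), the main HSP70 of the ER, had 2352, 2408 and 2893 CPM in plasma cells against 2507, 2450 and 2601 CPM in other leukocytes. It lay at the level of the pooled leukocytes on the full total, and 1.03 above on the log2 scale with immunoglobulin left out. Within that pool, monocytes and macrophages averaged 4318 CPM, above plasma cells at 2551 CPM. B cells, T cells, neutrophils, ILC2 and NK cells or ILC1 were below plasma cells, at 1184, 1538, 1874, 2086 and 2149 CPM. Calr (calreticulin) stood at -0.08 ± 0.06, and Canx (calnexin), the membrane-bound partner of calreticulin in the lectin cycle, was lower at -0.68 ± 0.04. With immunoglobulin left out Canx stood at 0.34 and its call was lost, so the direction for Canx depends on the total used. Calr was then called higher, at 0.94. Hyou1 (0.24), Dnajb9 (0.61), Dnajb11 (0.32) and Manf (0.70) were not called on the full total. With immunoglobulin left out these were called higher too, at 1.26, 1.63, 1.34 and 1.72.

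Among the disulfide isomerases, Pdia4 (ERp72) had 397, 378 and 518 CPM in plasma cells of DATK32, MECA-367 and rat IgG, against 95.8, 77.3 and 127 CPM in other leukocytes, a mean log2 ratio of 2.12 ± 0.15. Pdia3 (ERp57), which works with calnexin and calreticulin, stood at -0.69 ± 0.19 and Pdia6 (P5) at 0.63 ± 0.26, and neither was called. With immunoglobulin left out Pdia6 was called higher at 1.65, and Pdia3 stood at 0.33 without a call. Pdia5 was almost absent from plasma cells, with 4, 3 and 8 counts in the same libraries. On the full total its ratio was called lower, but the sign turned to 0.60 when immunoglobulin and cells with other lineages' RNA were left out together, a check chosen after seeing the data.

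Xbp1, which encodes the transcription factor that IRE1 activates by splicing, had 1189, 1043 and 1088 CPM in plasma cells of DATK32, MECA-367 and rat IgG, against 234, 212 and 262 CPM in other leukocytes, a mean log2 ratio of 2.23 ± 0.16. A UMI count of the gene does not part the spliced from the unspliced form. Atf6, whose protein is itself a sensor, stood at 1.21 ± 0.04 and was higher. Ern1 (IRE1α) stood at -0.96 ± 0.20 and was lower, but at 0.06 with immunoglobulin left out. Ern2 (IRE1β) stood at -2.60 ± 0.95 without a call, from 3, 0 and 3 counts in plasma cells, and at -1.58 with immunoglobulin left out. Atf4 at -0.04 ± 0.03 and Ddit3 (CHOP) at 0.29 ± 0.22 were not called, and both were called higher with immunoglobulin left out, at 0.98 and 1.31. Of the ATF4 and CHOP targets, Chac1, an enzyme that degrades glutathione, was higher with 19.0, 30.8 and 18.2 CPM in plasma cells, against 5.26, 1.95 and 4.23 CPM in other leukocytes. Asns (asparagine synthetase) stood at 0.93 ± 0.30 without a call, but was called higher at 1.95 with immunoglobulin left out. Trib3 was not measured.

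**Figure D2:**
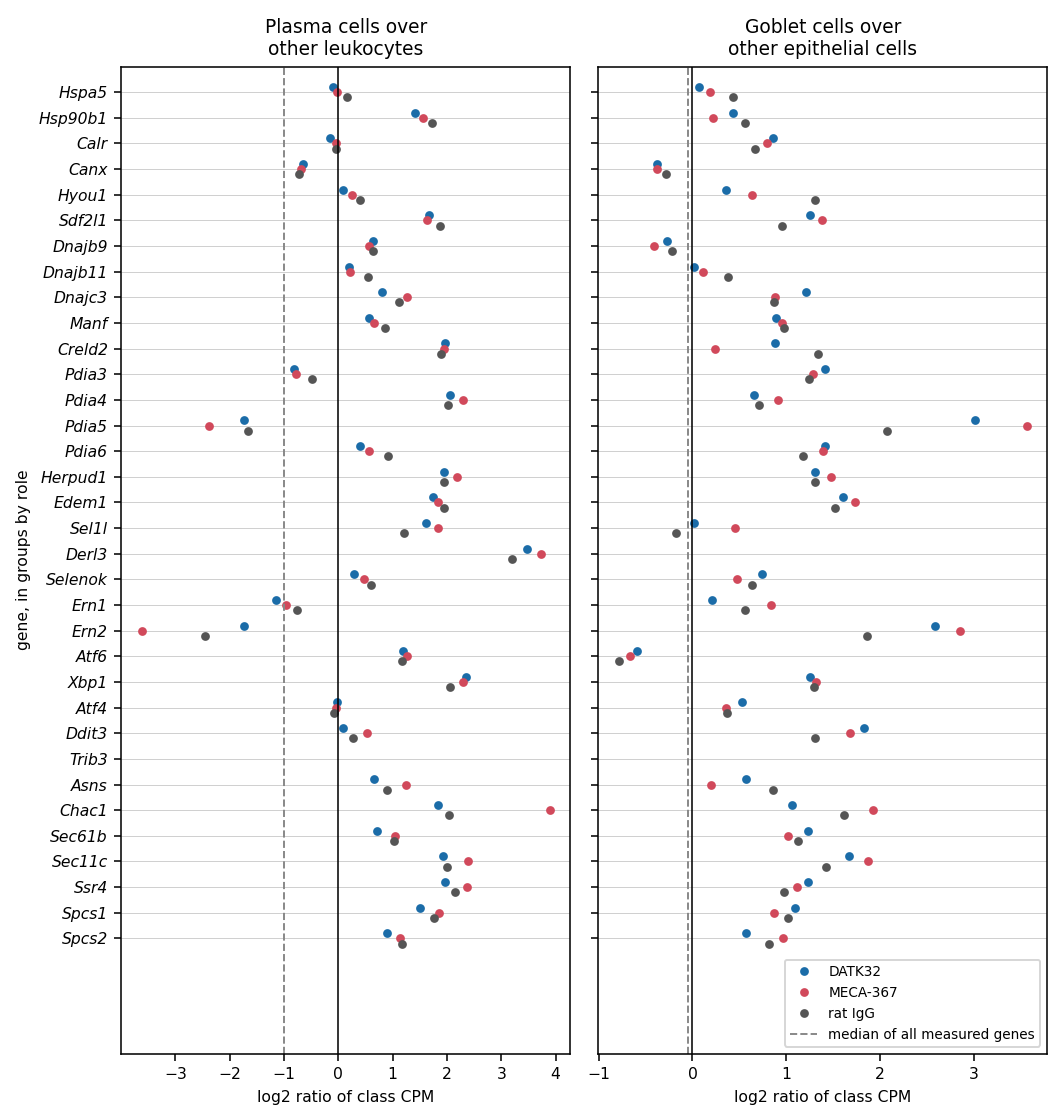
The log2 ratio of class CPM for each gene in each library, plasma cells over other leukocytes on the left and goblet cells over other epithelial cells on the right; each point is 1 library, rows are genes in role order, and the dashed line is the median of all measured genes. The points of a gene lie close together in most rows, Derl3 and Chac1 lie farthest right among plasma cell ratios and Pdia5 and Ern2 among goblet cell ratios; genes with under 50 counts are left blank. The genes called lower, Canx, Pdia5 and Ern1 in plasma cells and Atf6 in goblet cells, lie left of 0, signs that turned under other scalings or settings named in the text. Some genes without a call lie left of 0 too. Of these, Ern2 in plasma cells has a mean of -2.60, and of -1.58 with immunoglobulin left out.

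B cells are the lineage from which plasma cells form, and the comparison with them asks which genes part the secreting from the non-secreting stage. Of 31 measured genes, 17 were higher in plasma cells and 0 lower, against 1.4% of 7065 genes higher and 17.3% lower. With immunoglobulin left out, 26 of 31 were higher and 0 lower, against 5.11% and 3.41% of genes. The all-gene median log2 ratio over B cells was -1.19 on the full total and -0.14 with immunoglobulin left out. Xbp1 had 1189, 1043 and 1088 CPM in plasma cells of DATK32, MECA-367 and rat IgG, against 110, 127 and 223 CPM in B cells. The mean log2 ratio was 2.86 ± 0.54 for Xbp1, 2.37 ± 0.38 for Herpud1 and 2.32 ± 0.38 for Ssr4. Edem1 gave 680, 925 and 1285 counts in plasma cells of the same libraries, against 8, 4 and 66 counts in B cells. Hspa5, level with the other leukocytes only when those were pooled, was higher than in B cells at 1.11 ± 0.17, and Manf, a secreted ER factor, at 1.20 ± 0.07. Immunoglobulin made up 0.604% of B cell UMIs in the DATK32 library, 0.671% in the MECA-367 library and 5.37% in the rat IgG library. Derl3 gave 0 counts in DATK32 B cells, 3 in MECA-367 B cells and 22 in rat IgG B cells. The part of plasma cell RNA in the rat IgG B cell values was not tested.

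Goblet cells were compared with the other named epithelial cells, which were absorptive colonocytes, enteroendocrine cells and tuft cells. Absorptive colonocytes gave most cells of that side, with 165, 78 and 240 cells in DATK32, MECA-367 and rat IgG. Squamous epithelial cells, with 179, 0 and 231 cells in the same libraries, were left out of this comparison. Epithelial cells without a class name, with 1245, 877 and 1210 cells, were left out too. No cluster was named as crypt epithelium, and the rankings over classes do not cover the unnamed cells. Of 32 measured genes, 18 were higher and 1 was lower in goblet cells, against 6.65% of 9994 genes higher and 5.71% lower. The median log2 ratio was 0.88 over the 32 genes and -0.05 over all measured genes, so the class as a whole was close to unshifted. All 4 disulfide isomerases, 4 of 5 entry-gate genes and 4 of 11 chaperones were among the higher genes. With the epithelial cells that had no class name also on the other side, 19 genes were higher and 0 lower, a comparison added after seeing the data.

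The goblet cell signature was led by a pair of genes that plasma cells lacked. Pdia5 had 242, 215 and 243 CPM in goblet cells of DATK32, MECA-367 and rat IgG, against 29.2, 17.0 and 57.0 CPM in other epithelial cells, a mean log2 ratio of 2.89 ± 0.75. Ern2 (IRE1β) had 194, 140 and 164 CPM in goblet cells, against 31.5, 18.2 and 44.5 CPM in other epithelial cells, a mean log2 ratio of 2.44 ± 0.51. In both genes the groups did not overlap in any library. With cells of at least 1000 UMIs thinned to 1000, 18.1%, 13.2% and 14.7% of goblet cells had an Ern2 UMI. Of T cells, 0.299%, 0.342% and 0.439% had one, from 1, 2 and 1 cells. Before thinning the goblet cell shares were 62.2%, 60.7% and 44.0%.

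The other disulfide isomerases were higher as well. Pdia3 had 953, 1022 and 914 CPM in goblet cells of DATK32, MECA-367 and rat IgG, against 358, 418 and 386 CPM in other epithelial cells. The mean log2 ratios were 1.31 ± 0.09 for Pdia3, 1.33 ± 0.13 for Pdia6 and 0.76 ± 0.13 for Pdia4. At the entry gate, Sec11c stood at 1.66 ± 0.23, Sec61b at 1.12 ± 0.10, Ssr4 at 1.11 ± 0.13 and Spcs1 at 0.99 ± 0.11, while Spcs2 at 0.79 ± 0.20 was not called. The degradation genes Edem1 and Herpud1 stood at 1.62 ± 0.11 and 1.36 ± 0.10 and were higher, while Sel1l at 0.10 ± 0.32 was not. Of the chaperones, Sdf2l1 (1.20 ± 0.22), Dnajc3 (0.99 ± 0.20), Manf (0.94 ± 0.05) and Calr (0.77 ± 0.09) were higher, and Hspa5 at 0.23 ± 0.18 and Hsp90b1 at 0.41 ± 0.17 were not called.

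Ddit3, the gene of the stress-induced factor CHOP, had 454, 524 and 414 CPM in goblet cells of DATK32, MECA-367 and rat IgG, against 127, 162 and 166 CPM in other epithelial cells. Goblet cells held the highest Ddit3 level of the 13 classes, and the next, endothelial cells, averaged 149 ± 14.7 CPM (SD over 3 libraries). Chac1, a CHOP target, had 43.5, 59.4 and 41.8 CPM in goblet cells, against 20.2, 14.5 and 13.1 CPM in other epithelial cells. Atf4, which encodes the factor upstream of CHOP, was highest in goblet cells among the 13 classes at 653 ± 23.6 CPM but was not called over other epithelial cells (0.42 ± 0.10). Asns stood at 0.54 ± 0.33 without a call, and Trib3 gave 17, 8 and 9 counts in goblet cells and was not measured. Xbp1 was higher at 1.29 ± 0.03.

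Atf6 was lower in goblet cells by the call, though not under every setting, with 57.6, 58.5 and 61.5 CPM in DATK32, MECA-367 and rat IgG, against 86.9, 92.1 and 106 CPM in other epithelial cells. That direction turned to 0.93 with the median of the other classes in place of their sum, to 0.42 with the epithelial cells without a class name included and to 0.28 with classes by marker score per cell. Enteroendocrine cells held 676, 368 and 623 CPM of Atf6 from 44, 32 and 73 cells. Absorptive colonocytes averaged 30.7 CPM, the lowest of the 13 classes.

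Set side by side, plasma and goblet cells differed in the level of part of the 34 genes, and 12 were not called. Of 34 measured genes, 14 were higher and 8 lower in plasma cells than in goblet cells, against 6.66% of 10237 genes higher and 45.4% lower. With immunoglobulin left out, 25 were higher and 4 lower (Pdia3, Pdia5, Ern2 and Ddit3), against 13% and 17.1% of genes. The all-gene median log2 ratio over goblet cells was -1.12 on the full total and -0.05 with immunoglobulin left out. The degradation genes Edem1 (1.82 ± 0.30) and Sel1l (1.78 ± 0.05) and the chaperones Creld2 (2.24 ± 0.20), Sdf2l1 (1.63 ± 0.08) and Hsp90b1 (1.46 ± 0.21) were higher in plasma cells. Pdia4 was higher in plasma cells at 1.53 ± 0.07, whereas Pdia3 was lower at -2.03 ± 0.13 and averaged 235 ± 8.23 CPM in plasma cells and 963 ± 54.7 CPM in goblet cells.

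Some stress sensors and transcription factors differed as well. Ern2 gave 3, 0 and 3 counts in plasma cells of DATK32, MECA-367 and rat IgG, against 592, 303 and 444 counts in goblet cells. Xbp1 and Atf6 were higher in plasma cells, at 1.18 ± 0.01 and 1.27 ± 0.09, and Ern1 did not differ by the call (0.32 ± 0.12). On the full total Ddit3 (-1.94 ± 0.18), Asns (-1.34 ± 0.20), Atf4 (-1.28 ± 0.18) and Chac1 (-1.09 ± 0.13) were lower in plasma cells. With immunoglobulin left out Ddit3 alone of these 4 kept the call, and Chac1 stood at -0.01.

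**Figure D3:**
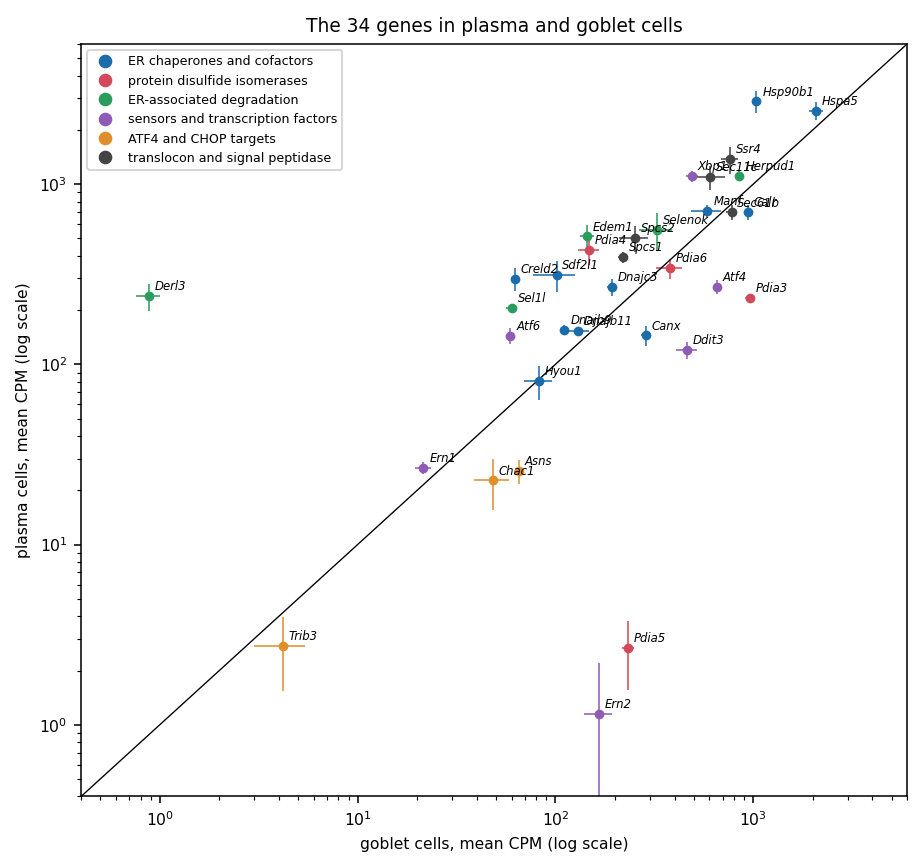
Mean CPM over 3 libraries in plasma cells (vertical, log scale) and goblet cells (horizontal, log scale) for the 34 genes, coloured by role, with bars of 1 SD (cut at the axis for Ern2) and the line of equal levels. Derl3 lies far above the line at 239 against 0.881 CPM, and Ern2 and Pdia5 lie far below it at 1.15 against 166 and 2.67 against 233 CPM.

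Ern1 was highest in innate lymphoid classes. ILC2 had 149, 243 and 269 CPM in DATK32, MECA-367 and rat IgG, from 10, 34 and 17 counts, and NK cells or ILC1 had 165, 163 and 200 CPM. Those neighbours in the order did not part, as their intervals overlapped in each library. T cells came below them at 78.3, 76.8 and 69.9 CPM, and plasma and goblet cells averaged 26.7 ± 2.18 and 21.5 ± 2.05 CPM.

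Hspa5 was highest in monocytes and macrophages, with 4140, 4270 and 4545 CPM in DATK32, MECA-367 and rat IgG, above plasma cells at 2352, 2408 and 2893 CPM. Without the monocytes and macrophages over 5% immunoglobulin, Hspa5 in that class was at 4412, 4564 and 4778 CPM, so the level did not fall with those cells. Calr and the BiP assistants Hyou1 and Dnajb11 also had their highest mean in that class. Hyou1 averaged 111 CPM there and 82.9 CPM in goblet cells, the next class, and Calr had 990, 942 and 991 CPM, against 923, 918 and 968 CPM in goblet cells. Both had a higher CPM than in goblet cells within each library, although the ranges over the 3 libraries overlapped. The intervals overlapped in each library for Calr, and in MECA-367 and rat IgG for Hyou1, so the classes did not part there. Dnajb11 was above plasma cells, its next class, in DATK32 and MECA-367 but not in rat IgG, where it had 154 CPM against 162 CPM in plasma cells. The Dnajb11 intervals overlapped in DATK32 and in rat IgG. Xbp1 in the same cells was at 231, 178 and 206 CPM without the barcodes over 5% immunoglobulin, against 356, 318 and 347 CPM with them.

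**Figure D4:**
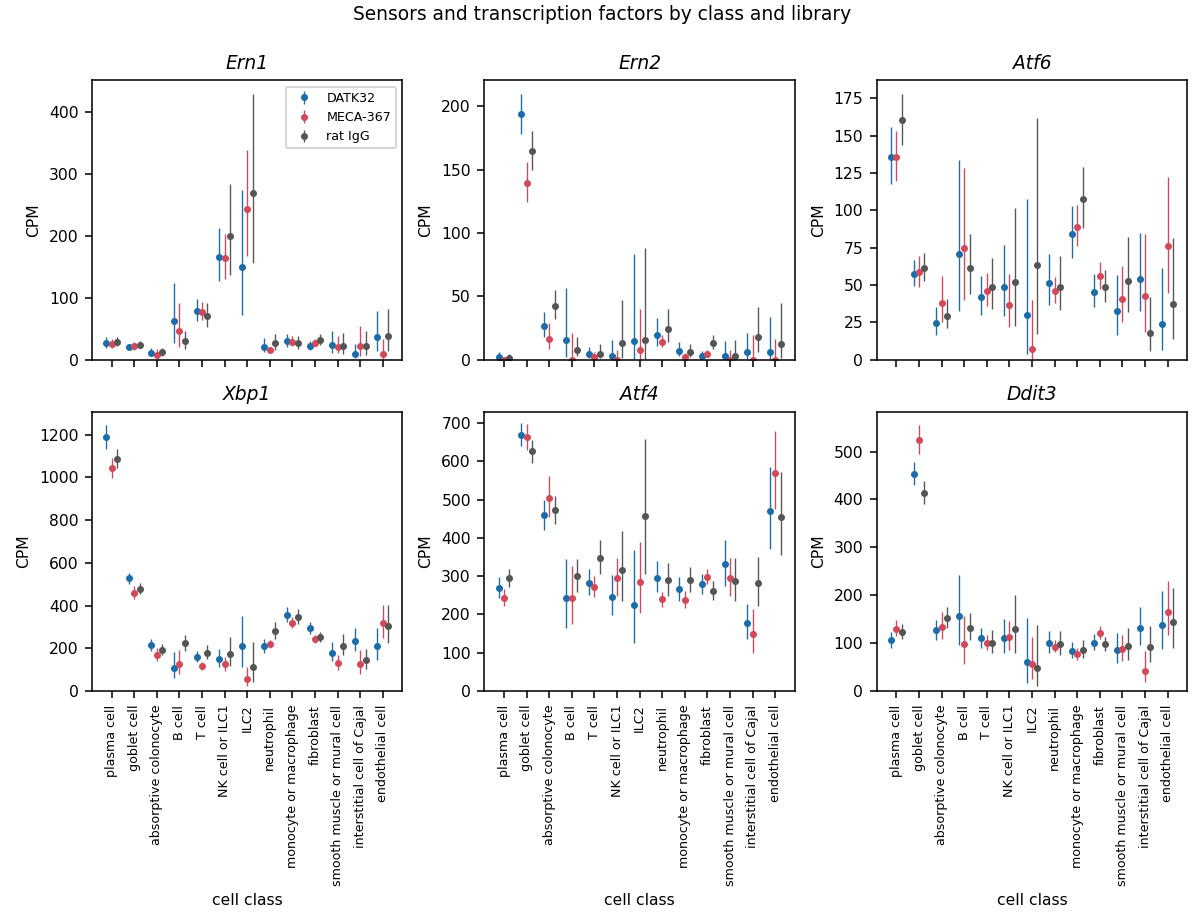
CPM of the sensors and transcription factors in 13 cell classes, 1 panel per gene, with 1 point per library (DATK32, MECA-367, rat IgG) and exact Poisson 95% intervals. Xbp1 and Atf6 peak in plasma cells, Ern2, Atf4 and Ddit3 in goblet cells, and Ern1 in ILC2 and NK cells or ILC1; each panel has its own axis from 0.

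Goblet cells fell into 3 sub-clusters, made without the 34 genes among the variable genes, and the stress genes varied between them. The sub-cluster led by Ccl9, Agr2 and Atoh1 (291, 156 and 326 cells in DATK32, MECA-367 and rat IgG) had 60.6, 84.1 and 51.8 CPM of Chac1. The sub-cluster led by Ccl6, Muc2 and Retnlb (209, 91 and 266 cells) had 16.9, 16.5 and 29.3 CPM, and the small one led by Zg16, Clca1 and Fcgbp (29, 25 and 72 cells) had 25.3, 20.4 and 31.6 CPM. The CPM of Chac1 was thus highest in the Agr2 and Atoh1 sub-cluster in all 3 libraries. The Zg16 values rest on only 4, 4 and 11 counts, so the order over that sub-cluster is uncertain. Herpud1 averaged 989 ± 51.3 CPM there and 630 ± 20.6 CPM in the Muc2 and Retnlb sub-cluster, and Hspa5 averaged 2319 ± 276 and 1572 ± 83.3 CPM. In the Zg16 sub-cluster Herpud1 averaged 760 ± 278 CPM and Hspa5 2315 ± 463 CPM, so its Hspa5 level did not part from that of the Agr2 and Atoh1 sub-cluster. Ssr4 went the other way, with 681 ± 56.4 CPM in the Agr2 and Atoh1 sub-cluster and 937 ± 150 CPM in the Muc2 and Retnlb sub-cluster, and so did Ern2, with 154 ± 22.3 and 198 ± 28.4 CPM. Among plasma cells 255 of 262, 259 of 260 and 556 of 563 had at least 90% Igha among their heavy chain constant UMIs, so no comparison of isotypes could be made.

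Genes of the same route outside the 34 were counted from lists. Over all these lists together, without immediate-early, heat shock and immunoglobulin genes, 22 of 105 were higher and 12 lower in plasma cells against other leukocytes. Of all measured genes 2.31% were higher and 37.2% lower. In that comparison 5 of 14 degradation genes, 5 of 18 translocation genes and 5 of 12 oxidative folding genes were higher, with 0, 0 and 1 lower. Edem2 (2.70 ± 0.07), Tram2 (2.79 ± 0.35), Fkbp11 (3.12 ± 0.37), a prolyl isomerase, and Txndc5 (3.01 ± 0.36), a disulfide isomerase, led these lists. Of 21 integrated stress response genes 2 were higher and 8 lower, beside 37.2% of all measured genes lower, with the cystine transporter gene Slc7a11 lowest at -7.00 ± 0.28 and Eif2ak3 (PERK) higher at 1.11 ± 0.27. In goblet cells against other epithelial cells, the same lists together gave 50 of 103 higher and 0 lower, beside 6.65% of all measured genes higher and 5.71% lower. Here 13 of 18 ER to Golgi transport genes, 11 of 17 translocation genes, 9 of 16 N-glycosylation genes and 7 of 11 oxidative folding genes were higher. Kdelr3 (3.52 ± 1.11), a receptor that returns ER residents, and Creb3l1 (2.23 ± 0.42), an ER-bound transcription factor, were among them, and Slc7a11 was higher here at 2.29 ± 0.37. Immediate-early and heat shock genes, which can respond to cell handling, gave 0 higher and 11 lower of 18 in plasma cells, beside that same 37.2%, and 2 higher and 0 lower of 18 in goblet cells. Set against goblet cells they gave 0 higher and 15 lower of 18 in plasma cells, beside 45.4% of all measured genes lower, and their part in the Ddit3 and Atf4 levels was not tested.

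The antibodies were compared within each class, to ask whether the response differed between libraries of treated mice. In plasma cells no gene was called in DATK32 over rat IgG (0 higher and 0 lower of 31 measured), against 1.09% of 5970 genes higher and 2.28% lower. MECA-367 over rat IgG also gave 0 and 0 of 31, against 1.86% and 9.43% of genes. DATK32 over MECA-367 gave 0 higher and 1 lower, against 4.15% and 1.86%, and that gene was Selenok, with 449 CPM in DATK32 and 710 CPM in MECA-367 (log2 ratio -0.66). The members' median log2 ratio was -0.17 in DATK32 over rat IgG, beside -0.12 for all measured genes, and -0.06 in MECA-367 over rat IgG, beside -0.24. Plasma cells had medians of 4866, 6844.5 and 3280 UMIs in DATK32, MECA-367 and rat IgG. With cells of at least 1000 UMIs thinned to 1000, 1 gene was called in DATK32 over rat IgG, 0 in MECA-367 over rat IgG and 2 in DATK32 over MECA-367.

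Goblet cells gave the same picture. DATK32 over rat IgG called 0 higher and 0 lower of 32 genes, against 0.664% of 9038 genes higher and 1.19% lower, and MECA-367 over rat IgG called 0 and 0, against 1.21% and 2.02%. DATK32 over MECA-367 called 0 higher and 1 lower, against 1.85% and 1.24%. The gene was Sdf2l1, a partner of the ER DnaJ proteins, with 83.4 CPM in DATK32 and 129 CPM in MECA-367 (log2 ratio -0.63), beside 91.1 CPM in rat IgG. For both classes the comparisons share libraries, so their values are not independent. A fold under 1.5 is not called by this rule, so smaller differences cannot be called here.

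Over all 13 classes, 346 pairs of a gene and a class were measured. DATK32 over rat IgG gave 1 pair higher and 6 lower, against 1.13% of 66154 such pairs of all genes higher and 1.62% lower. MECA-367 over rat IgG gave 9 higher and 17 lower (4.91%), against 3.11% and 6.16%, and DATK32 over MECA-367 gave 4 higher and 7 lower, against 3.81% and 2.3%. The shares of the 34 genes were therefore at or below those of all genes, except the lower pairs of DATK32 over rat IgG, at 1.73%.

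**Figure D5:**
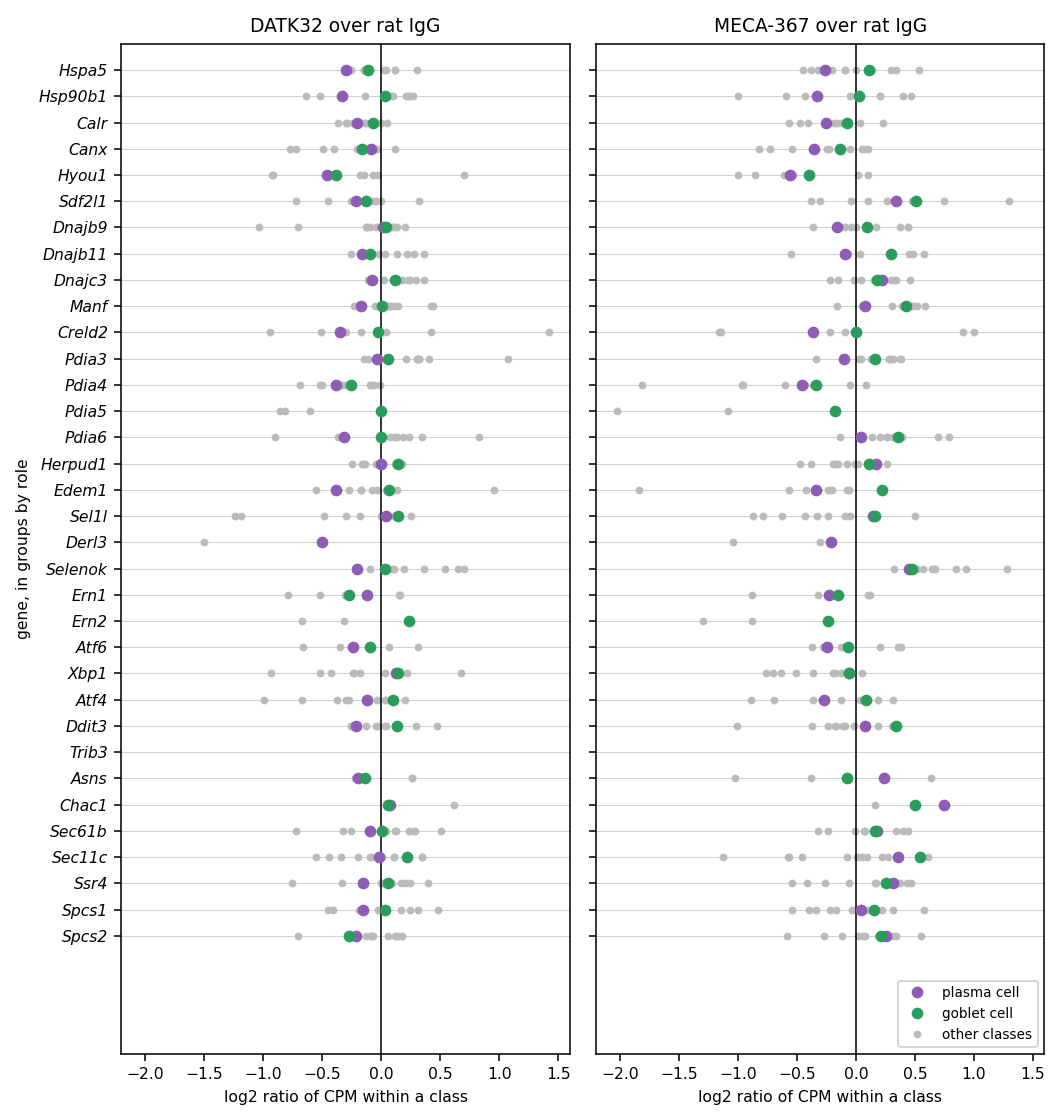
The log2 ratio of CPM within a class for each gene (rows, in role order), DATK32 over rat IgG on the left and MECA-367 over rat IgG on the right; each point is 1 class, with plasma cells and goblet cells coloured and the other 11 classes in grey. Plasma and goblet points lie within 1 of 0 in both panels, and all 13 Selenok points lie right of 0 in MECA-367 over rat IgG, between 0.32 and 1.28.

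Selenok was the gene with the most uniform difference between libraries. It was above rat IgG in 13 of 13 classes of the MECA-367 library, with log2 ratios of 0.32 to 1.28, and was called in 6 of them. In fibroblasts it had 467 CPM in MECA-367 against 294 CPM in rat IgG, in absorptive colonocytes 269 against 169 CPM, and in ILC2 685 against 269 CPM. Of the 545 genes measured in every class, 3.85% were above rat IgG in all 13 classes and 8.26% below, so such uniformity was not particular to Selenok. In DATK32 over MECA-367, which shares the MECA-367 library, Selenok was lower in sign in 13 of 13 classes, and called in 2. Manf was above rat IgG in 12 of 13 classes and Pdia6 in 11 of 12, whereas Xbp1 was below in 11 of 12, Edem1 in 10 of 11 and Pdia4 in 10 of 11. The share of all genes with signs alike in most but not all classes was not counted. These counts are therefore not read as particular to the members. With all measured genes split into 4 equal groups by transcript length, the shortest group had a median log2 ratio of -0.07 in plasma cells and 0.05 in goblet cells in the same contrast, and the longest had -0.36 and -0.10. The transcript of Selenok is 1678 bases long and that of Edem1 6077 bases, and the part of length in these ratios was not tested.

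The remaining calls were scattered over the other classes, and part of them are given here. T cells of the MECA-367 library had 158 CPM of Sdf2l1 against 62.9 CPM in rat IgG (log2 ratio 1.30) and 236 CPM of Pdia6 against 136 CPM (0.79), with Xbp1 lower at 116 against 180 CPM (-0.64). Neutrophils of MECA-367 were lower in Canx, Creld2, Pdia4, Pdia5 and Sel1l, with log2 ratios of -0.82, -1.14, -0.96, -1.08 and -0.79. The median of all measured genes in that class lay below 0 as well, at -0.31 in the shortest and -0.43 in the longest of the 4 length groups. Absorptive colonocytes of MECA-367 were lower in Ern2, with 16.1 CPM against 42.4 CPM in rat IgG (-1.30), and in Pdia5, with 11.7 against 53.0 CPM (-2.03). When each library was clustered on its own the Pdia5 ratio there was 0.13. Goblet cell markers took 0.313%, 0.120% and 0.523% of absorptive colonocyte UMIs in DATK32, MECA-367 and rat IgG. Their part in these 2 ratios was not tested. B cells of MECA-367 were lower in Edem1 (4 counts against 66 in rat IgG, -1.84) and Hsp90b1 (-0.59), and B cells of DATK32 were lower in Xbp1 (-0.94), or 0.15 with each library clustered on its own, in a class whose immunoglobulin share is given above. B cells of DATK32 were higher in Pdia3 (1.07). NK cells or ILC1 of MECA-367 were lower in Pdia4 (-1.81). Smooth muscle or mural cells were lower in Sec11c (-1.13) and Xbp1 (-0.71) in MECA-367, and in Sel1l (-1.19) and Ssr4 (-0.76) in DATK32.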

How the data were processed

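Per the labels' protocols, cells were prepared with a 10x Genomics 3' kit and sequenced together. Per the submitters' processing notes, the authors used Cell Ranger 6.0.2 with build mm10; annotation, cell filter and strand setting are not given in the sources used here. The deposited matrices hold raw UMI counts per gene and barcode, 28030376, 27846540 and 30359331 in the DATK32, MECA-367 and rat IgG libraries. From these, cells were clustered with scanpy 1.11.5 (2000 variable genes, without the 34 genes and the pathway lists, 30 principal components, 15 neighbours, Leiden resolution 1), and epithelial clusters were clustered again. Clusters were named by mean standardised marker expression, with limits set after seeing the data. Scrublet's own threshold marked 0 or 1 cells per library and so had not worked; no doublets were removed, and removing the highest scores is an alternative. Counts were summed by class and library, and log2 ratios add 1 count to each side. The ratio and call steps were tested on simulated data. Ddit3 has 2 rows, of which 1 holds all counts. Members and lists were chosen with earlier results of these data known. Named genes were the 34, and outside them up to 2 at each end of a list. Alternatives changed scaling, cell filters, clustering, class naming, count minimum and fold. Sequences are RefSeq windows of build GRCm38.p6; protein sequences were not used here.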

Additional observations from a re-analysis of the deposited data

How the results depend on the processing

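The scaling total mattered most in plasma cells. With immunoglobulin genes left out, or with cells holding other lineages' RNA left out as well, 28 genes were higher and 0 lower against other leukocytes and 25 higher and 4 lower against goblet cells. Median-of-ratios scaling gave 28 and 0, and 22 and 4. Against B cells 26 were higher with immunoglobulin genes left out and 27 with median-of-ratios scaling. Against other leukocytes, genes lower numbered 0 with classes by marker score per cell, and 1 with a mean over cells, thinning to 1000 UMIs, each library clustered on its own, a fold of 2 or the median over the other classes. Against goblet cells a fold of 2 gave 9 higher, and thinning gave 5 lower. In goblet cells against other epithelial cells, thinning or a fold of 2 gave 11 higher, and 0 were lower in 12 settings: those 2, median-of-ratios scaling, a mean over cells, doublet scores, resolutions 0.5 and 2.0, libraries clustered alone, the 34 genes among variable genes, marker scores, the median over other classes and unnamed epithelial cells included.

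Signs turned for Canx over other leukocytes (0.34 with immunoglobulin genes left out, 0.10 with median-of-ratios scaling, 0.40 with other lineages' cells out too) and over goblet cells (0.084 in the first and the last of these). They turned for Pdia5 over other leukocytes (0.12 with the median over classes, 0.60 with immunoglobulin and other lineages' cells out), Ern1 (0.060 with immunoglobulin out) and Atf6 in goblet cells (0.28 with marker scores, 0.93 with the median over classes, 0.42 with unnamed epithelial cells). With libraries clustered alone they turned for Xbp1 in B cells (0.15) and Pdia5 in absorptive colonocytes (1.27) in DATK32 over rat IgG, and for Pdia5 there in MECA-367 over rat IgG (0.13); with 1000 UMIs and 500 genes required, Hsp90b1 in ILC2 stood at 0.023. Apart from leaving out immunoglobulin, the cause was not tested.

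Between libraries, few genes were called under any setting. In plasma cells DATK32 over rat IgG gave 2 with a mean over cells and 1 with thinning. MECA-367 over rat IgG gave 2 with immunoglobulin left out, alone or with other lineages' cells, or with median-of-ratios scaling, and 1 with a mean over cells. DATK32 over MECA-367 gave 2 in those 3 settings, with thinning and with a mitochondrial limit of 20%, 3 with a mean over cells and 0 with a fold of 2. In goblet cells MECA-367 over rat IgG gave 1 with a mean over cells, thinning, a mitochondrial limit of 5%, resolution 2.0, libraries clustered alone or the 34 genes among variable genes. DATK32 over MECA-367 gave 2 with a mean over cells, and 0 with limits of 5% or 20%, 1000 UMIs, libraries clustered alone, marker scores or a fold of 2. Pairs of gene and class in DATK32 over rat IgG were higher in 6 (mean over cells), 2 (limit of 20% or resolution 0.5) or 3 (marker scores), and lower in 0 (marker scores), 2 (other lineages' cells out) or 1 (fold of 2). In MECA-367 over rat IgG they were higher in 15 (marker scores) or 2 (fold of 2), and lower in 11 (resolution 0.5), 5 (marker scores) or 8 (fold of 2). In DATK32 over MECA-367 they were higher in 10 (doublet scores), 0 (marker scores) or 1 (fold of 2), and lower in 1 (fold of 2). Before thinning, Derl3 had a UMI in 56.9%, 75.4% and 55.8% of plasma cells and Ern2 in 62.2%, 60.7% and 44.0% of goblet cells of DATK32, MECA-367 and rat IgG.

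With each library left out in turn, 17 to 19 genes were higher in plasma cells against other leukocytes and 18 to 20 in goblet cells against other epithelial cells. The comparison of isotypes was not run, pairs over 13 classes had no value where a class fell under 50 cells, and a limit of 5% gave no value for goblet against other epithelial cells. The settings with immunoglobulin with other lineages' cells left out and with unnamed epithelial cells included were chosen after seeing the data. No paired analysis was possible because each group has 1 library.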

Other observations

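The ER stress element is rare enough that the other genes holding it can be counted. Of 29 genes outside the 34 with the element in their window, 25 were in the files, and 4 were measured in plasma cells against other leukocytes, of which Syvn1 was higher and 1 was lower. Syvn1 encodes HRD1, the ubiquitin ligase of ER-associated degradation. In goblet cells against other epithelial cells 6 were measured, of which Syvn1 and Spats2l were higher and 0 lower. Of the 8 members with the element, Creld2, Derl3, Dnajc3 and Hsp90b1 were higher in plasma cells, with Canx lower on the full total, and Calr, Dnajc3 and Pdia6 were higher in goblet cells. Of all 33 measured members 17 were higher in plasma cells, beside 2.31% of all measured genes, and in goblet cells 18 of 32 were higher, beside 6.65%. These are counts only, and no test was made of the element.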
